A study of Arabidopsis thaliana with 24 samples.

Results

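The WRKY transcription factor family was followed in Arabidopsis thaliana seedlings given ATP from outside the cell. The members were 50 loci listed by locus identifier, out of 33245 gene identifiers in the count data. All 50 carry a gene symbol in the RefSeq annotation, where WRKY1 is listed as ZAP1 and WRKY44 as TTG2. Another 22 loci with a WRKY name were not analysed here. By the usual division on the number and type of WRKY domains, the members comprised 10 of group I, 3 of group IIa, 6 of IIb, 10 of IIc, 7 of IId, 5 of IIe and 9 of group III.

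The study compared 4 genotypes: the wild type Col-0, mutants that carry p2k1-3 or bdg-8 alone, and a double mutant, p2k1-3 bdg-8. P2K1 is the plasma membrane receptor kinase that binds extracellular ATP, and BDG1 (BODYGUARD) is an epidermal protein required for a normal cuticle. Each genotype was sampled as mock and after 30 min with 150 µM ATP, giving 8 groups of 3 libraries (24 in all) of poly(A) RNA from whole seedlings. The labels name 1 allele of each gene, so an effect of the mutated gene and of anything else that differs between the lines cannot be told apart. Seedling age and the composition of the mock are not given in the sources used here.

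WRKY proteins are plant transcription factors named after a conserved peptide in their DNA-binding domain, and they recognise the W box, whose core is TTGAC. Many are early response genes of pattern-triggered immunity: receptor kinases at the cell surface activate calcium-dependent kinases and mitogen-activated protein kinase cascades, which act on WRKY proteins, and WRKY proteins in turn bind promoters of other WRKY genes. Extracellular ATP is a damage signal released from broken cells.

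W boxes in the promoters of WRKY genes themselves are the sequence feature through which the family is known to regulate itself. The 250 bases before the annotated start are shown for the 3 members that rose the most with ATP in Col-0 among those with enough expression (WRKY40, WRKY46 and WRKY38) and for WRKY30 and WRKY53, which moved in opposite directions in different genotypes and were picked for display after their values were seen. Sequences were read 5′ to 3′ on the gene's strand from RefSeq's TAIR10.1 genome; capitals mark TTGAC (or its reverse complement GTCAA) and CGCGT (or ACGCG), the core of the site bound by calmodulin-binding CAMTA factors.
WRKY40 (AT1G80840), chr1:30383311-30383560, plus strand: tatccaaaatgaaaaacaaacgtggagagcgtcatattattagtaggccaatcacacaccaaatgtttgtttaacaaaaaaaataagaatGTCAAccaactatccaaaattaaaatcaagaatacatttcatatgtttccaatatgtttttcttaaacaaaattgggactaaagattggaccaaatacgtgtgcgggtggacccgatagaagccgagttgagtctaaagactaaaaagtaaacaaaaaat
WRKY46 (AT2G46400), chr2:19044956-19045205, minus strand: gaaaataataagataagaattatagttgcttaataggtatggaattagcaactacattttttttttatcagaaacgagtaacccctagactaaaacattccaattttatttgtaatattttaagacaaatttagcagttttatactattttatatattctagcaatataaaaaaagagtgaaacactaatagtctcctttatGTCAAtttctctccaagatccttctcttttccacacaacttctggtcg
WRKY38 (AT5G22570), chr5:7496991-7497240, minus strand: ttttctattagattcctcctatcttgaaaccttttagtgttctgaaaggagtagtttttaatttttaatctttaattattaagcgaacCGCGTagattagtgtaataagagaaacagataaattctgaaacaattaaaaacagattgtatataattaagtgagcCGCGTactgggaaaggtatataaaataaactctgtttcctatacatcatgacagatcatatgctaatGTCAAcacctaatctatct
WRKY30 (AT5G24110), chr5:8154711-8154960, minus strand: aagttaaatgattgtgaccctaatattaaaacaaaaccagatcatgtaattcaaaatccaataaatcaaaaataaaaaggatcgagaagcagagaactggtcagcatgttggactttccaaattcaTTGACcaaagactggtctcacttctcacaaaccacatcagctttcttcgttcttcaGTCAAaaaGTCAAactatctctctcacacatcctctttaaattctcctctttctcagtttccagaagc
WRKY53 (AT4G23810), chr4:12393983-12394232, minus strand: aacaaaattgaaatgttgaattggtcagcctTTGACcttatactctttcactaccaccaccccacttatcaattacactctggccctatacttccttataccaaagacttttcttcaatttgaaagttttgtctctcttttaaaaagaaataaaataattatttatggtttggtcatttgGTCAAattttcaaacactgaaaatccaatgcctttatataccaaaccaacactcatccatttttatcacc

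Within 250 bases before to 50 after the start, TTGAC on either strand occurred in 31 of 50 members, 62% (95% Wilson interval 48.2 to 74.1%), and in 50.5% of 27443 protein-coding genes. Among the 21 members that rose with ATP in Col-0, 15 carried it, 71.4% (50 to 86.2%), against 14 of the 27 other members tested, 51.9% (34 to 69.3%). The longer forms TTGACC and TTGACT, which contain the core, occurred in 18% and 28% of members and in 14.2% and 21.8% of all protein-coding genes. CGCGT occurred in 5 of 50 members, 10% (4.35 to 21.4%), beside 8.7% of all protein-coding genes. Of those 5, 4 were among the 21 members that rose in Col-0 (19%, 7.67 to 40%) and 1 among the other 27 (3.7%, 0.657 to 18.3%). Counting the 250 bases before the start alone, TTGAC was in 71.4% of the former and 37% of the latter (21.5 to 55.8%). In that window it was in 54% of all members and 44.9% of all protein-coding genes. The intervals overlap, and the differences were not tested. The palindrome ACGCGT counts on both strands. A match describes letters in the window and is not evidence of binding.

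Reads counted in genes numbered between 25856588 and 35239775 per library. P2K1 transcripts were at 21.4 ± 0.821 CPM (counts scaled to a common library total; mean ± SD of 3 libraries) in mock Col-0 and at 12.1 ± 0.927 in p2k1-3 mock, and BDG1 was at 25.4 in Col-0 mock and 14.2 in bdg-8 mock. With ATP, BDG1 was at 26 CPM in Col-0 but at 107 in bdg-8 and 112 in the double mutant, so the bdg-8 lines were below Col-0 in mock and above it with ATP. Within every group, replicate 3 lay between replicates 1 and 2 for 40.2 to 51% of genes, where 33.3% is the share for 3 exchangeable libraries. Pooled over the groups, it did so for 203 of 384 values of the members (52.9%). By group this ran from 16 of 48 members with ATP in p2k1-3 to 30 of 48 in Col-0 mock and Col-0 with ATP. For that reason the counts of called members in each comparison, and most of those of the gene lists and subgroups, are also given for replicates 1 and 2 alone. If replicate 3 is not independent of the other libraries of its group, SEs and p-values from all replicates are too small, which was not tested. The summed level of 8 green tissue markers (Rubisco small subunits, Rubisco activase and chlorophyll-binding proteins) ran from 27900 to 53200 CPM over the 24 libraries. Of these 8, 7 were among the genes tested. The summed level of 5 root hair markers ran from 69.7 to 147 and that of 6 endodermis markers from 19.3 to 33.5. Shoot and root RNA were thus present throughout. The labels do not say whether replicates were separate cultures, so p-values measure the spread between these libraries, which may be technical.

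Of the 50 members, 48 passed the expression filter and were tested. WRKY41 and WRKY55, both of group III, did not pass: WRKY41 reached at most 0.114 CPM and WRKY55 at most 0.557 CPM in any library. Levels of different members were compared per kilobase of exon. In Col-0 mock WRKY65 stood at 22.3 ± 0.733 CPM per kb, WRKY3 at 19.8 ± 0.293, WRKY11 at 17.8 ± 0.748 and WRKY15 at 16.5 ± 0.513 (SD, n = 3). With ATP the order changed to WRKY18 at 77.9 ± 1.51, WRKY33 at 59.7 ± 5.13, WRKY15 at 34.0 ± 1.21 and WRKY40 at 32.6 ± 2.06 CPM per kb in Col-0. WRKY18 and WRKY33 were separated by more than their SDs, while WRKY15 and WRKY40 were not.

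ATP raised the transcripts of 21 of 48 WRKY genes in Col-0 and lowered those of 6 (edgeR quasi-likelihood test, adjusted p under 0.05 over all genes tested). Among all 20995 genes tested, 13.2% were higher and 8.67% lower. The median log2 change of the members was 0.29, beside -0.01 over all genes, and 12 members rose at least 2-fold while 1 fell that far. Replicates 1 and 2 alone gave 17 members higher and 3 lower, beside 8.74% and 3.13% of all genes. Of 5 root hair markers, 1 was lower with ATP in Col-0 (0 with replicates 1 and 2). The median log2 changes of green tissue and endodermis markers were 0.08 and -0.16. In RNA from whole seedlings, fewer cells of a type and less RNA per cell cannot be told apart.

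Rises were found in all subgroups, with the highest median in IIa and III. WRKY18 and WRKY40 of group IIa rose and WRKY60 did not pass the test (log2 change 0.29 ± 0.11 SE); the 3 proteins interact and modulate basal defence. Group III, which holds several regulators of salicylic acid signalling, had 5 of 7 tested members higher and a median log2 change of 1.5. In group I, 5 of 10 rose and 2 fell. The calmodulin-binding group IId split evenly, with 3 of 7 higher (WRKY11, WRKY15 and WRKY21) and 3 lower (WRKY7, WRKY17 and WRKY39). Groups IIb, IIc and IIe had 2 members higher each, and 1 IIc member lower. Replicates 1 and 2 alone gave 5 rises in group III and 2 in each other subgroup, and 1 member fell in each of I, IIc and IId.

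WRKY40, a repressor of defence and abscisic acid genes, was at 1.43, 2.48 and 1.75 CPM in the 3 Col-0 mock libraries and at 40.6, 46.1 and 42.9 CPM with ATP. All ATP libraries stood far above all mock libraries, a log2 rise of 4.52 ± 0.19 (SE; edgeR adjusted p = 1.3e-15). Its partner WRKY18 was at 18.1, 19.0 and 18.2 CPM in mock and reached 162, 156 and 157 CPM with ATP. Its libraries did not overlap either, and the log2 rise was 3.10 ± 0.08.

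Within group I, WRKY33, a substrate of MPK3 and MPK6 that directs camalexin synthesis, was at 14.3, 15.4 and 14.7 CPM in mock and at 111, 132 and 122 CPM with ATP, a log2 rise of 3.03 ± 0.12 (SE). WRKY25 and WRKY26, which share roles in heat tolerance with WRKY33, also rose, by 0.92 ± 0.09 and 0.65 ± 0.15. WRKY3, which has a role in resistance to necrotrophic fungi, fell by 0.31 on the log2 scale (SE 0.06; edgeR adjusted p = 0.00028). WRKY1 of the same group fell by 0.13.

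In group III, WRKY46, which promotes salicylic acid-dependent defence, was at 2.06, 1.59 and 1.63 CPM in Col-0 mock and 24.1, 30.7 and 28.7 CPM with ATP, a log2 rise of 3.98 ± 0.19. WRKY38, a negative regulator of basal defence, was low in mock, at 0.174, 0.851 and 0.407 CPM (5, 23 and 13 counts), and was at 5.46, 3.96 and 4.78 CPM with ATP. Its rise of 3.32 ± 0.31 therefore rests on few mock counts, although the groups did not overlap. WRKY70, a node between salicylic acid and jasmonic acid signalling, rose by 2.44 ± 0.19, WRKY53, a senescence regulator, by 1.36 ± 0.27, and WRKY30 by 1.5 ± 0.31. WRKY54 and WRKY62, the closest relatives of WRKY70 and WRKY38, had log2 changes of 0.66 ± 0.26 and 0.84 ± 0.57 and did not pass the test.

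Among the remaining rises, WRKY51 of IIc, which acts in salicylic acid repression of jasmonic acid responses, was at 0.454, 0.776 and 0.251 CPM in mock and 3.56, 2.51 and 3.09 CPM with ATP (log2 rise 2.66 ± 0.32). WRKY48, a stress-induced negative regulator of basal defence also in IIc, rose by 2.17 ± 0.11, and WRKY22 of IIe, placed downstream of flagellin perception, by 1.19 ± 0.10. WRKY17, which with WRKY11 limits basal resistance, was at 18.8, 20.1 and 20.3 CPM in mock and at 13.9, 14.1 and 13.8 CPM with ATP. WRKY17 fell by 0.51 on the log2 scale while WRKY11 rose by 0.72 ± 0.06, so the pair moved apart. WRKY7 and WRKY39 fell by 0.16 and 0.15 (edgeR adjusted p = 0.037 and 0.035), and neither was called with replicates 1 and 2 alone (adjusted p = 0.11 and 0.23). WRKY71, a low-expressed IIc gene at 0.419, 0.518 and 0.502 CPM in mock, was at 0.0312, 0.126 and 0.105 CPM with ATP, 1 to 4 counts per library.

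**Figure D1:**
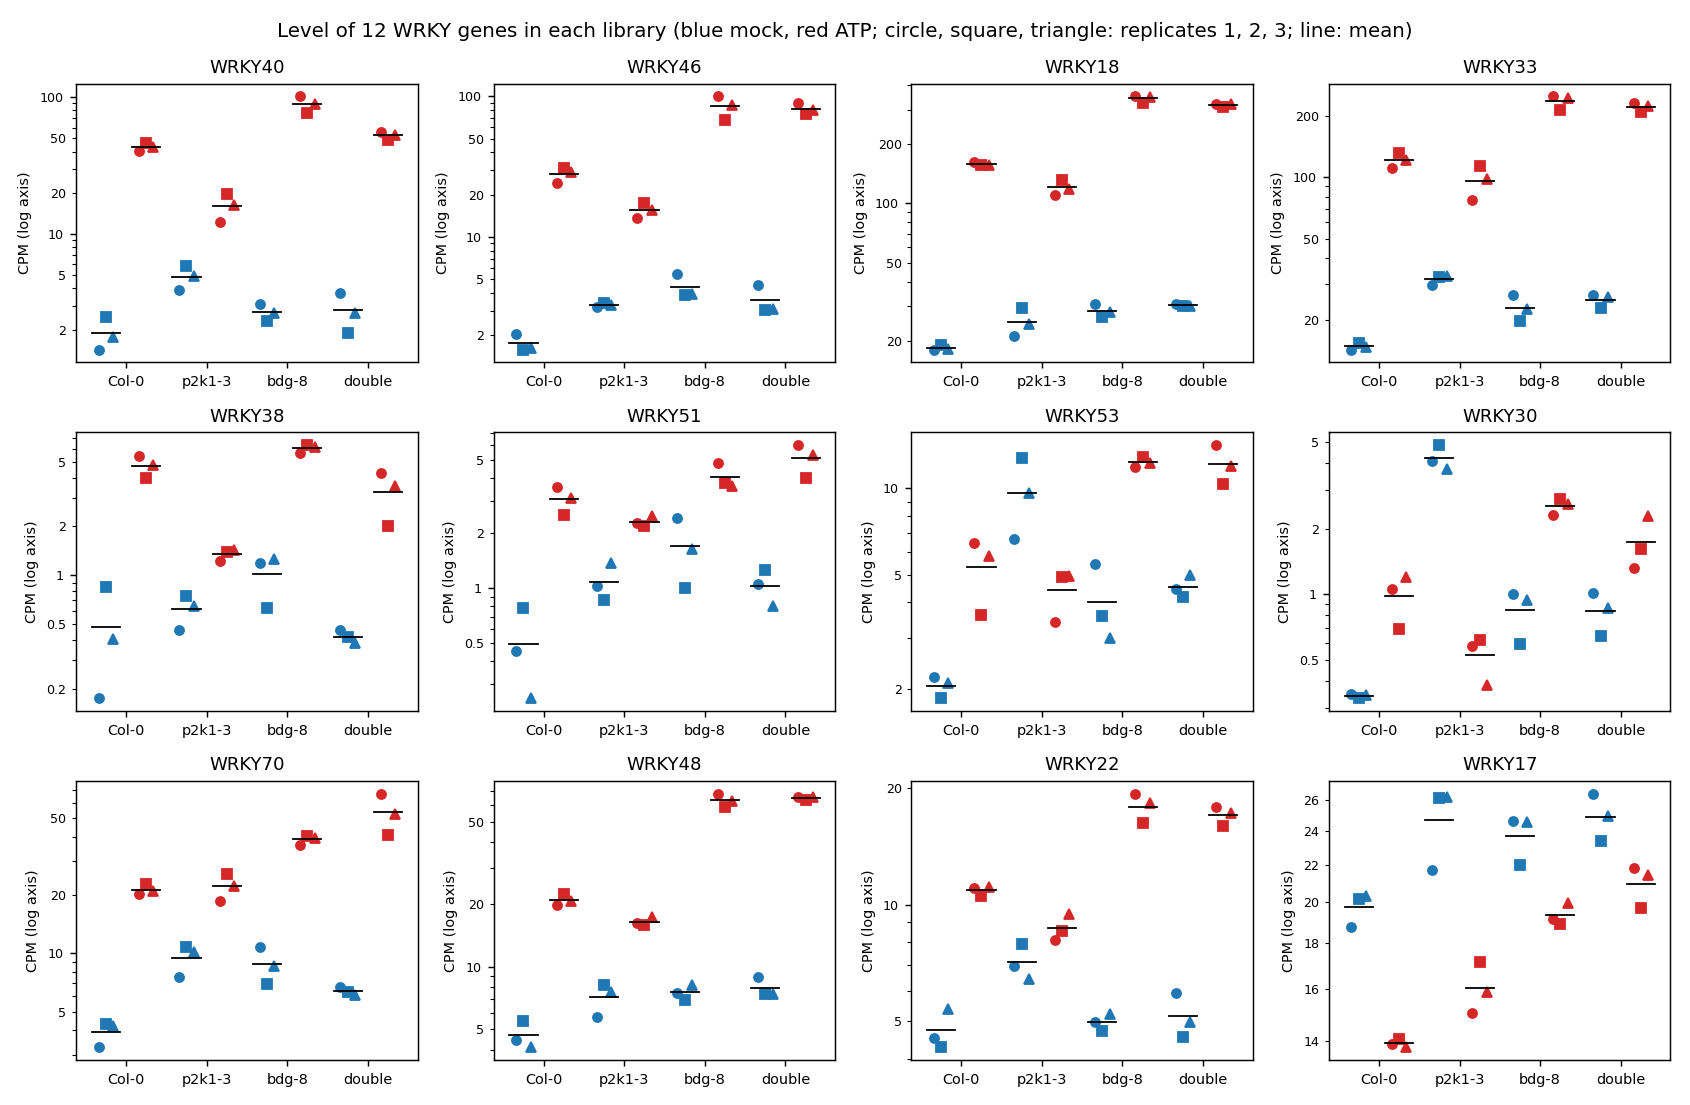
Level of 12 WRKY genes in each of the 24 libraries, in CPM on a log axis, by genotype; blue is mock, red is ATP, the symbol gives the replicate number and the line the mean of 3 libraries. WRKY40 in Col-0 runs from 1.43 to 2.48 in mock and from 40.6 to 46.1 with ATP, and WRKY30 and WRKY53 are highest among the mock groups in p2k1-3.

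The 4 comparisons of ATP with mock, 1 per genotype, share no libraries. In them 16 of the 48 members (33.3%) were called higher in every genotype, beside 8.17% of all genes: WRKY11, WRKY15, WRKY18, WRKY21, WRKY22, WRKY25, WRKY26, WRKY33, WRKY38, WRKY40, WRKY46, WRKY48, WRKY51, WRKY69, WRKY70 and WRKY72. WRKY7 and WRKY17 were called lower in every genotype (4.17% of members, 2.88% of all genes). In replicates 1 and 2 alone 9 of the 16 were called higher in every genotype (WRKY11, WRKY18, WRKY25, WRKY33, WRKY40, WRKY46, WRKY48, WRKY70 and WRKY72), beside 5.39% of all genes, and 0 members were lower in every genotype, beside 1.03%.

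In the p2k1-3 mutant, in which receptor transcripts were reduced, 18 members were called higher with ATP and 11 lower, beside 11.9% and 8.53% of all genes. The median log2 change of the members was 0.04, 8 rose at least 2-fold and 4 fell at least 2-fold. WRKY18 (2.27 ± 0.08), WRKY46 (2.24 ± 0.18), WRKY40 (1.71 ± 0.17) and WRKY33 (1.60 ± 0.11) had the largest rises. The counts were 10 higher and 7 lower with replicates 1 and 2 alone, beside 6.57% and 2.39% of all genes. With ATP in p2k1-3, 3 of 5 root hair markers (median log2 change -0.43) and 2 of 6 endodermis markers were lower, 0 and 1 with replicates 1 and 2; their part in the WRKY changes was not tested.

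The test of the difference between the ATP responses of p2k1-3 and Col-0 called 16 members lower in p2k1-3 and 0 higher, beside 3.80% and 0.681% of all genes. The median difference of the members was -0.32 on the log2 scale. Group III had 5 of 7 lower (2 with replicates 1 and 2 alone), and the other subgroups had between 1 and 3 lower each. With replicates 1 and 2 alone 6 members were called: WRKY15, WRKY22, WRKY30, WRKY33, WRKY40 and WRKY53, in that case beside 0.709% of all genes lower. The other 10 were not called in that fit, which also has fewer libraries.

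WRKY40 in p2k1-3 was at 3.93, 5.79 and 4.90 CPM in mock and at 12.2, 19.4 and 16.2 CPM with ATP. Its mock libraries were above and its ATP libraries below every Col-0 library of the same treatment. The ATP response differed from that of Col-0 by -2.81 ± 0.29 on the log2 scale (edgeR adjusted p = 1.2e-06, and 0.018 with replicates 1 and 2). Both ends contributed to that difference, since WRKY40 was higher by 1.37 ± 0.26 in p2k1-3 mock and lower in p2k1-3 with ATP, a log2 difference of -1.44.

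WRKY53 did not follow the same course. It was at 2.2, 1.85 and 2.10 CPM in Col-0 mock and at 6.46, 3.61 and 5.83 CPM with ATP, but at 6.63, 12.7 and 9.62 CPM in p2k1-3 mock and at 3.42, 4.92 and 4.96 CPM with ATP. It thus rose in Col-0 and fell in p2k1-3, by 1.12 on the log2 scale (SE 0.22; edgeR adjusted p = 0.00039). With ATP the genotypes overlapped, and the log2 difference was -0.25 ± 0.23. The response difference of -2.48 ± 0.34 therefore came with a mock difference of 2.23 ± 0.25.

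WRKY30, implicated in oxidative stress tolerance, showed the widest contrast of this kind. Its levels in Col-0 were 0.349, 0.333 and 0.345 CPM in mock (9 to 11 counts) and 1.06, 0.691 and 1.19 CPM with ATP. In p2k1-3 they were 4.06, 4.82 and 3.75 CPM in mock (123 to 135 counts) and 0.582, 0.619 and 0.384 CPM with ATP. The log2 change was a fall of 2.99 in p2k1-3, and the responses differed by -4.49 ± 0.39 (edgeR adjusted p = 1.6e-07). WRKY30 is under the expression minimum used for naming the other members and is named because it was called in opposite directions.

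Further response differences were -2.2 ± 0.51 for WRKY38, -1.74 ± 0.30 for WRKY46 and -1.59 ± 0.45 for WRKY51 (edgeR adjusted p = 0.011, 0.00051 and 0.041). None of these 3 was called with replicates 1 and 2 alone (adjusted p = 0.45, 0.13 and 0.75). WRKY38 reached 1.23, 1.38 and 1.44 CPM with ATP in p2k1-3, well under every Col-0 ATP library. WRKY29, a partner of WRKY22, was the other member with opposite calls, -0.39 ± 0.12 in p2k1-3 against 0.34 ± 0.11 in bdg-8 and 0.40 ± 0.11 in the double mutant, and none of its 3 calls held with replicates 1 and 2 alone.

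**Figure D2:**
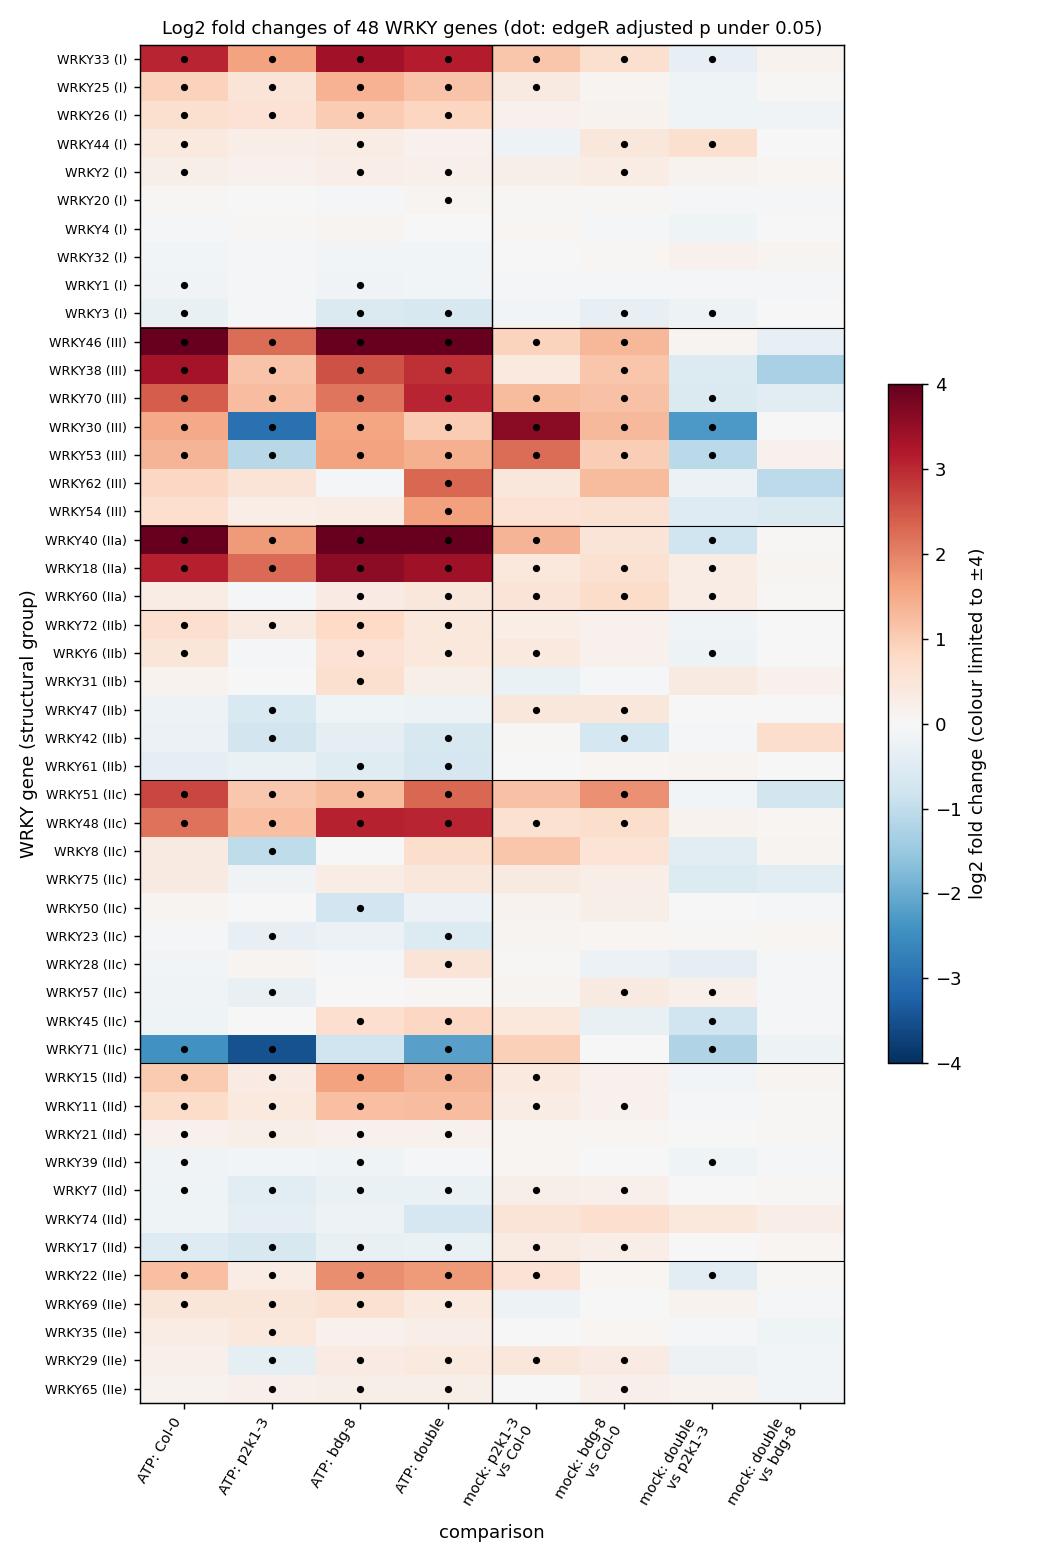
Log2 fold change of the 48 tested WRKY genes (rows, by subgroup), with ATP in each genotype (the first 4 columns) and between genotypes in mock (the last 4); colour gives the change, limited to ±4, and a dot marks an edgeR adjusted p under 0.05. WRKY40, WRKY46, WRKY18 and WRKY33 are among the strongest rises in the ATP columns, and WRKY30 and WRKY53 fall with ATP in the p2k1-3 column.

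Already in mock seedlings 18 members were higher in p2k1-3 than in Col-0 and 0 lower, beside 3.41% and 1.89% of all genes, with a median of 0.33 on the log2 scale beside 0.00. Group III had 4 of 7 higher, IId 4 of 7 and IIa 3 of 3, against 2, 0 and 0 with replicates 1 and 2 alone. The largest calls were WRKY53 (2.23 ± 0.25), WRKY40 (1.37 ± 0.26), WRKY70 (1.27 ± 0.21) and WRKY33 (1.10 ± 0.12), besides WRKY30 at 3.60 ± 0.25. WRKY33 was at 29.7, 32.5 and 32.9 CPM in p2k1-3 mock, above every Col-0 mock library. With replicates 1 and 2 alone 4 members were called (WRKY22, WRKY30, WRKY33 and WRKY53), beside 0.362% of all genes higher. Green tissue, root hair and endodermis markers had median differences of -0.17, -0.14 and -0.17 in this comparison, with 0 called by edgeR. At an unadjusted p under 0.05 the counts were 2, 0 and 2, and that count was not made over all genes.

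With ATP, 8 members were lower in p2k1-3 than in Col-0 and 1 was higher, beside 5.13% and 1.54% of all genes. WRKY38 was lower, with a log2 difference of -1.80, as were WRKY40 at -1.44 and WRKY46 at -0.84, and WRKY21 was higher by 0.16 ± 0.04. With replicates 1 and 2 alone WRKY40 was the 1 member called, beside 0.828% of all genes lower and 0.0524% higher. In the same comparison 2 of 6 endodermis markers were lower (0 with replicates 1 and 2), and their part was not tested.

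**Figure D3:**
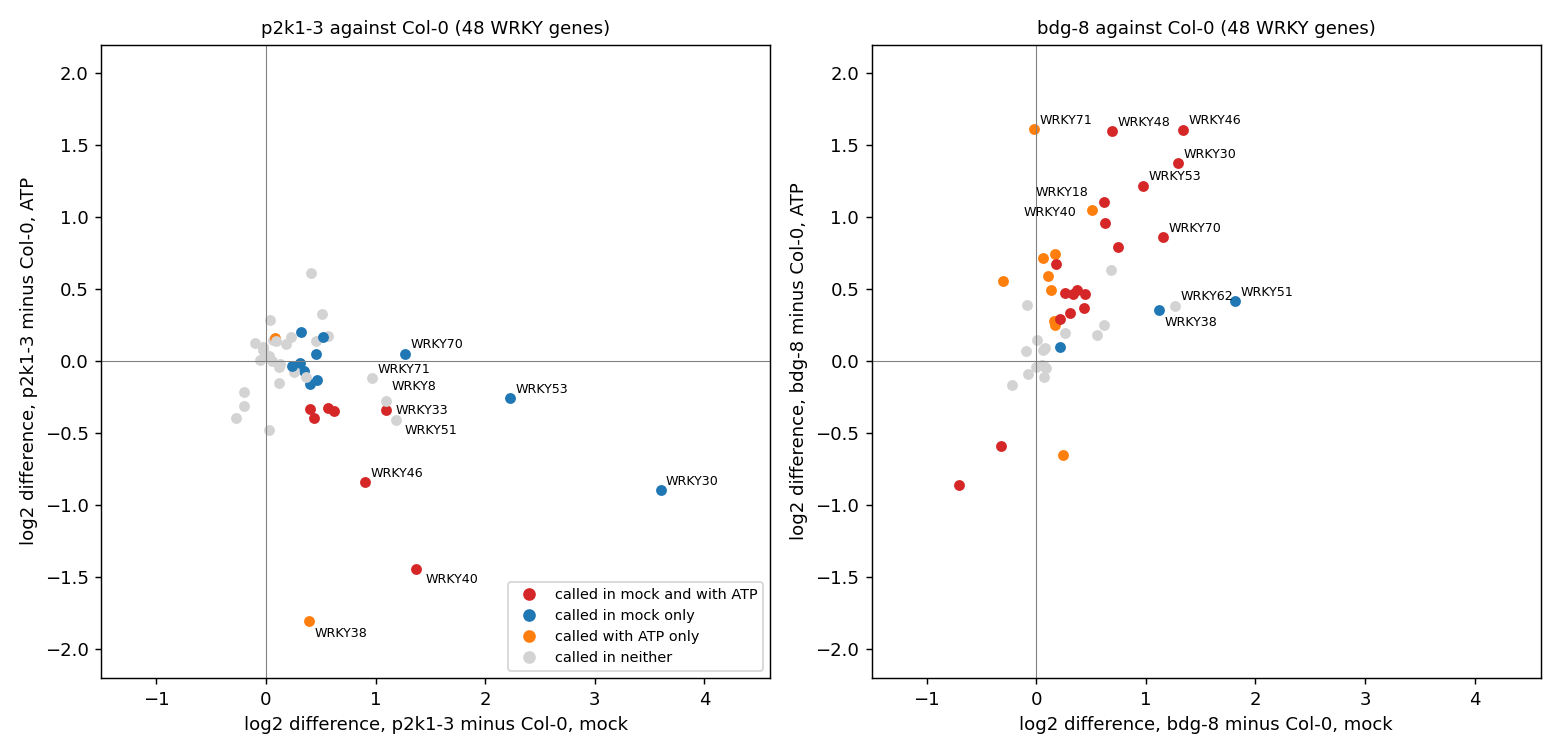
Log2 difference from Col-0 of the 48 tested WRKY genes in mock (horizontal) and with ATP (vertical), for p2k1-3 (left) and bdg-8 (right); colour shows in which of the treatments edgeR called the difference. In p2k1-3 the points reach to the lower right, WRKY30 at 3.60 in mock and WRKY40 at 1.37 in mock and -1.44 with ATP, whereas in bdg-8 most called points lie to the upper right.

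Many WRKY transcripts were higher in bdg-8 than in Col-0 in mock and with ATP. In mock 19 members were higher than in Col-0 (39.6%) and 2 lower (4.17%), beside 18% and 18.5% of all genes. WRKY51 (1.81 ± 0.35), WRKY46 (1.34 ± 0.25), WRKY70 (1.16 ± 0.21) and WRKY38 (1.12 ± 0.40) were the largest among members above the expression minimum for naming, beside WRKY30 at 1.3 ± 0.32, and WRKY3 was lower, at -0.32 ± 0.06. With replicates 1 and 2 alone 12 members were higher and 1 lower, beside 6.54% and 8.55% of all genes, and WRKY38 was not called (edgeR adjusted p = 0.36). Beside this, all 7 tested green tissue markers were lower (median log2 difference -0.45) 3 of 5 root hair markers higher and 1 of 6 endodermis markers lower in bdg-8 mock (3, 0 and 0 with replicates 1 and 2); their part in the WRKY differences was not tested.

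With ATP in bdg-8, 26 members were called higher and 7 lower, beside 18.7% and 17.7% of all genes, with 15 rising at least 2-fold and a median of 0.29. Replicates 1 and 2 alone gave 19 higher and 3 lower, beside 13.7% and 9.4% of all genes. Among the 6 endodermis markers 1 was higher and 1 lower with ATP in bdg-8 (0 and 1 with replicates 1 and 2). The median log2 changes of root hair and green tissue markers were -0.12 and -0.07. WRKY40 was at 3.07, 2.29 and 2.64 CPM in bdg-8 mock and at 101.5, 77.1 and 89.4 CPM with ATP, and every bdg-8 ATP library was above every Col-0 ATP library. WRKY46 went from 5.45, 3.89 and 3.97 to 99.8, 67.9 and 86.5 CPM. WRKY18 went from 30.7, 26.5 and 27.9 to 350.5, 324.8 and 349.5 CPM, the highest level of the family per kilobase in these libraries (169 ± 7.20 CPM per kb, SD, n = 3).

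Compared directly with Col-0 under ATP, 25 members were higher in bdg-8 (52.1%) and 3 lower (6.25%), beside 24.5% and 21.3% of all genes. WRKY46 was higher by 1.61 ± 0.12 on the log2 scale, WRKY48 by 1.60 ± 0.08, WRKY18 by 1.11 ± 0.07 and WRKY40 by 1.05 ± 0.12. The counts were 18 and 1 with replicates 1 and 2 alone, beside 14.2% and 12.6% of all genes. The 7 green tissue markers were all lower here too (median -0.50). Of 5 root hair markers 3 were higher, and 1 endodermis marker was lower. With replicates 1 and 2 these counts were 4, 1 and 0, and the part of these markers was not tested.

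The ATP response itself exceeded that of Col-0 for 6 members and fell short for 1, beside 5.76% and 2.15% of all genes. WRKY48 had the largest excess, 0.91 ± 0.15 (edgeR adjusted p = 0.00019, and 0.021 with replicates 1 and 2): it was at 4.46, 5.51 and 4.11 CPM in Col-0 mock and 19.8, 22.5 and 20.6 CPM with ATP, against 7.52, 6.95 and 8.14 and then 68.0, 59.0 and 63.2 CPM in bdg-8. WRKY22 had an excess of 0.66 ± 0.14: it was at 4.54, 4.29 and 5.39 CPM in Col-0 mock and 11.1, 10.5 and 11.1 with ATP, and at 4.97, 4.72 and 5.22 and then 19.3, 16.2 and 18.2 CPM in bdg-8. Its mock libraries overlapped between the genotypes and its ATP libraries did not. WRKY15 and WRKY11, IId members that also rose in Col-0, exceeded it by 0.57 ± 0.10 and 0.50 ± 0.08.

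WRKY51 went the other way, with a response difference of -1.40 ± 0.42 (edgeR adjusted p = 0.041). It was at 2.42, 1.01 and 1.64 CPM in bdg-8 mock and at 4.80, 3.76 and 3.61 CPM with ATP, so the smaller response came with a higher mock level. Of the 7 calls, WRKY11 and WRKY48 were still called with replicates 1 and 2 alone. In that fit 1.93% of all genes had a larger response and 0.252% a smaller one.

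In the p2k1-3 bdg-8 double mutant 28 members rose with ATP and 7 fell, beside 17.1% and 16.5% of all genes, with a median of 0.41 and 16 rising at least 2-fold. Replicates 1 and 2 alone gave 22 rises and 6 falls, beside 12.3% and 8.05% of all genes. With ATP in the double mutant all 5 root hair markers were lower (median log2 change -0.36), as were 2 of 7 green tissue and 2 of 6 endodermis markers (1, 0 and 0 with replicates 1 and 2); their part was not tested. All 7 tested group III members rose at least 2-fold (6 were called with replicates 1 and 2 alone), including WRKY54 (1.64 ± 0.24) and WRKY62 (2.30 ± 0.44), which were not called in the other 3 genotypes. Their response differences from bdg-8 did not pass the test (edgeR adjusted p = 0.075 and 0.11). WRKY40 was at 3.73, 1.9 and 2.65 CPM in mock and 56.1, 49.0 and 53.1 CPM with ATP, and WRKY46 at 4.55, 3.04 and 3.10 and then 89.0, 75.1 and 79.8 CPM. WRKY70 was at 6.71, 6.34 and 6.06 CPM in mock and at 66.5, 41.0 and 52.6 CPM with ATP, each ATP library above every ATP library of the other genotypes.

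Set against the p2k1-3 mutant, with which it shares the receptor allele, the double mutant had a larger ATP response for 22 members (45.8%) and a smaller one for 1 (2.08%), WRKY3, beside 9.85% and 6.38% of all genes. The differences were 2.53 ± 0.30 for WRKY53, 2.52 ± 0.27 for WRKY40, 2.26 ± 0.27 for WRKY46, 1.84 ± 0.24 for WRKY70 and 1.83 ± 0.14 for WRKY48, and all 5 were also called with replicates 1 and 2 alone, when 13 members were larger and 1 smaller. In that fit 4.87% of all genes had a larger response and 1.16% a smaller one. WRKY30 differed by 4.02 ± 0.33: it was at 1.01, 0.645 and 0.862 CPM in double mutant mock and at 1.32, 1.61 and 2.27 CPM with ATP, a rise where p2k1-3 had a fall. That rise was not called with replicates 1 and 2 alone (log2 change 0.81, edgeR adjusted p = 0.072). WRKY53 was at 4.45, 4.17 and 4.98 CPM in mock and at 14.2, 10.3 and 12 CPM with ATP. Of the 7 green tissue markers, 3 had a lower ATP response in the double mutant than in p2k1-3 (0 with replicates 1 and 2). Their part in these differences was not tested.

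In mock, 11 members were lower in the double mutant than in p2k1-3 (22.9%) and 4 higher (8.33%), beside 16.1% and 15.1% of all genes. WRKY53 was at -1.08 ± 0.21, WRKY45 at -0.80 ± 0.21, WRKY40 at -0.80 ± 0.24 and WRKY70 at -0.57 ± 0.19 on the log2 scale, and WRKY30 at -2.30 ± 0.21. WRKY44, better known as TTG2 for its part in trichome and seed coat development, was the largest rise at 0.65 ± 0.11, followed by WRKY60 and WRKY18 (0.29 each) and WRKY57 (0.22 ± 0.07). Counts were 1 higher and 3 lower with replicates 1 and 2 alone, beside 4.62% and 5.67% of all genes. In the same comparison 5 of the 7 green tissue markers were lower (median -0.35). Of 6 endodermis markers 3 were lower, and 3 of 5 root hair markers were higher. With replicates 1 and 2 each of these counts was 0. The part of these markers was not tested. With ATP, 28 members were higher in the double mutant and 2 lower, beside 28.8% and 25.2% of all genes. With replicates 1 and 2 alone 23 were higher and 1 lower, beside 20.3% and 17.1%. All 7 green tissue markers were lower there (median -0.65), with all replicates and with replicates 1 and 2 alone. Of the 6 endodermis markers 3 were lower and 1 higher, and 1 of 5 root hair markers was higher. With replicates 1 and 2 alone these counts were 1, 1 and 0. The part of these markers in the WRKY differences was not tested.

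Set against bdg-8, few members of the double mutant differed. In mock edgeR called 0 members in either direction, beside 0.381% of all genes higher and 0.286% lower. An unadjusted p under 0.05 was reached by 5 members, and DESeq2 called 1 member, beside 1.04% of all genes. The ATP response also gave 0 calls by edgeR, beside 0.152% and 0.486% of all genes. Here 13 members had an unadjusted p under 0.05, and DESeq2 called 2 members, beside 1.07% of all genes. With ATP, 3 members were higher (WRKY54, WRKY62 and WRKY70) and 3 lower (WRKY38, WRKY40 and WRKY72), beside 2.08% and 4.58% of all genes. In that comparison 2 of 5 root hair and 2 of 6 endodermis markers were lower (0 and 0 with replicates 1 and 2). Their part was not tested. None of the 6 members was called with replicates 1 and 2 alone, when 8 of the 48 members had an unadjusted p under 0.05. In that fit 0.0333% of all genes were higher and 0.328% lower. How many of all genes had an unadjusted p under 0.05 was not counted in these comparisons. WRKY40 differed from bdg-8 with ATP by -0.76 ± 0.12 on the log2 scale, and its response difference was -0.83 ± 0.29 (edgeR adjusted p = 0.25).

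**Figure D4:**
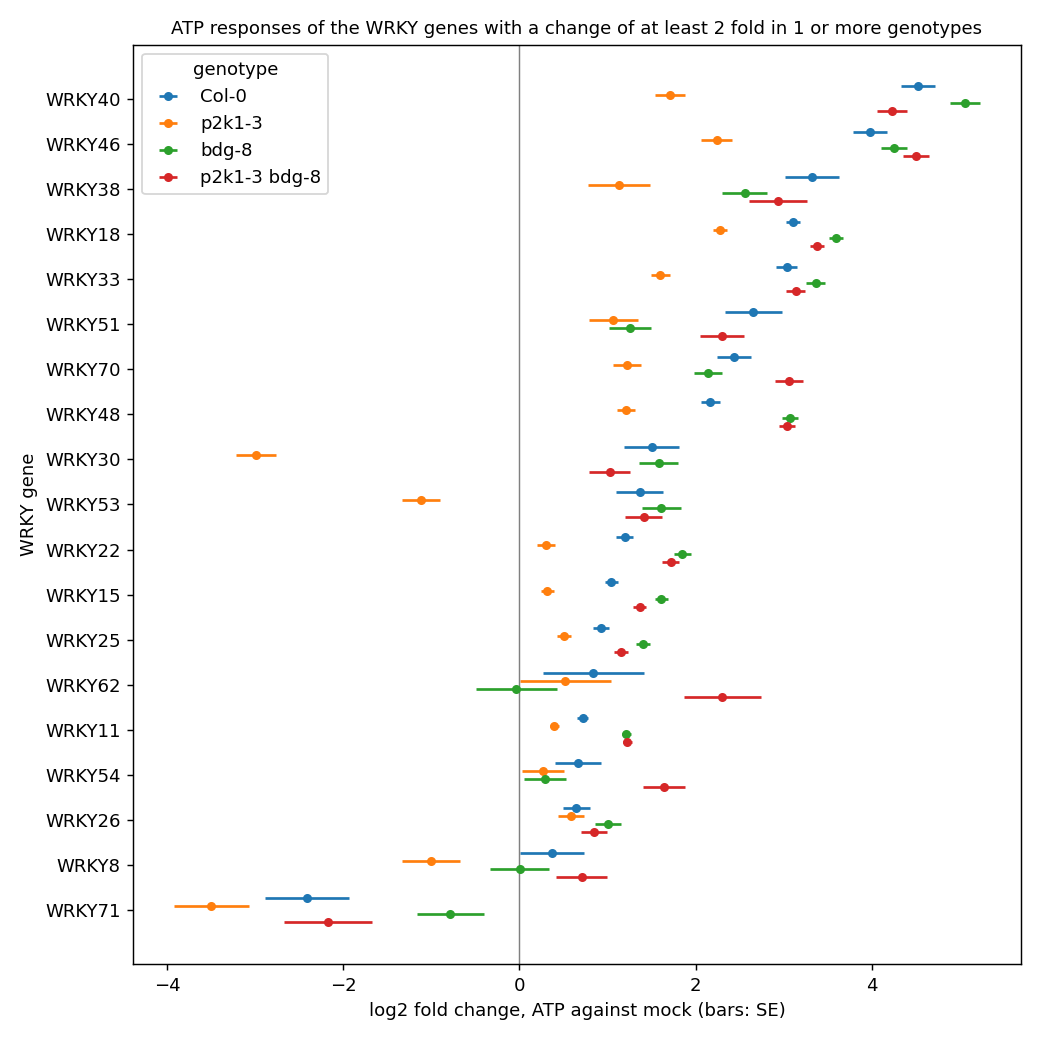
Log2 fold change with ATP against mock (horizontal axis) for the WRKY genes that changed at least 2-fold in 1 or more genotypes, with bars for the SE. Each genotype has its own colour. The p2k1-3 points lie left of the others for WRKY40 (1.71 against 4.23 to 5.06), WRKY30 and WRKY53, and the double mutant points lie near those of bdg-8 for most genes, with WRKY62 and WRKY54 farther right.

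Whether the mutations combined additively on the log2 scale was tested in the same model. Additive log2 differences mean that the fold changes multiply, and additivity of the levels themselves was not tested. In mock, 5 members had a double mutant log2 difference from Col-0 below the sum of the single mutant log2 differences. For 0 members it was above that sum, and 1.41% and 0.572% of all genes were below and above. The 5 were WRKY30 (-3.60 ± 0.38), WRKY53 (-2.05 ± 0.35), WRKY51 (-1.92 ± 0.49), WRKY70 (-1.73 ± 0.29) and WRKY33 (-0.97 ± 0.17). Without the expression filter 8 members were called, beside 1.65% of all genes in either direction, and by DESeq2 9, beside 2.41%. For the ATP response, 9 members exceeded the sum and 0 fell below it, beside 1.16% and 0.157% of all genes. The 9 were WRKY30 (3.94 ± 0.52), WRKY51 (2.64 ± 0.58), WRKY53 (2.28 ± 0.46), WRKY70 (2.14 ± 0.35), WRKY46 (2.0 ± 0.38), WRKY40 (1.98 ± 0.42), WRKY33 (1.21 ± 0.22), WRKY48 (0.92 ± 0.20) and WRKY18 (0.62 ± 0.15). Both tests use the same mock libraries with opposite sign. With replicates 1 and 2 alone 1 member (WRKY30) was called in mock and 0 for the ATP response. In that fit 2 and 0 of all 21006 genes tested were called. For the ATP response 14 members had an unadjusted p under 0.05 by edgeR, a count not made over all genes.

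Kinase cascades lie upstream of WRKY proteins. Of 14 genes of the mitogen-activated and calcium-dependent kinase pathways, 9 rose with ATP in Col-0 and 0 fell (median log2 change 0.48), beside 13.2% and 8.67% of all genes, with MPK3 at 2.2 ± 0.06, MKK9 at 2.04 ± 0.16, MEKK1 at 1.12 ± 0.05 and CPK6 at 1.01 ± 0.05. In p2k1-3, bdg-8 and the double mutant 9, 11 and 11 rose and 0 fell in each, beside 11.9%, 18.7% and 17.1% of all genes higher. The counts for replicates 1 and 2 alone were 7, 7, 10 and 9 rises in Col-0, p2k1-3, bdg-8 and the double mutant. Of all genes, 8.74%, 6.57%, 13.7% and 12.3% rose in that fit. MPK3, the kinase that phosphorylates WRKY33, was at 52.8, 54.5 and 50.1 CPM in Col-0 mock and at 226.7, 253.6 and 241.4 CPM with ATP, and in bdg-8 reached 485.5, 474.3 and 484.0 CPM. The ATP response was smaller than in Col-0 for 6 of the 14 in p2k1-3, beside 3.80% of all genes, and larger for 7 in bdg-8, beside 5.76%. With replicates 1 and 2 alone the counts were 3 and 4, beside 0.709% and 1.93% of all genes.

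VQ proteins bind WRKY proteins as cofactors. Of 5 tested VQ genes, 2 rose with ATP in Col-0 and 0 fell, beside 13.2% and 8.67% of all genes: SIB1, a partner of WRKY33, at 1.22 ± 0.24, and MKS1, which links WRKY33 to MPK4, at 0.92 ± 0.16. In p2k1-3 1 rose and 1 fell, and in bdg-8 and the double mutant 2 rose and 0 fell in each. Of all genes, 11.9% rose and 8.53% fell in p2k1-3, and 18.7% and 17.1% rose in bdg-8 and the double mutant. In p2k1-3 0 rose and 1 fell with replicates 1 and 2 alone, and the counts in the other 3 genotypes were 2 and 0. Of all genes in that fit, 6.57% rose and 2.39% fell in p2k1-3. In Col-0, bdg-8 and the double mutant 8.74%, 13.7% and 12.3% rose. SIB2 did not pass the filter.

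Of 16 genes reported as targets of WRKY proteins, ABI4 did not pass the filter. Of the 15 tested, 5 rose with ATP in Col-0 and 0 fell (median 0.30), beside 13.2% and 8.67% of all genes. ERF109, an early ethylene response factor gene, had 0 counts in all 3 Col-0 mock libraries and 13, 28 and 17 counts with ATP. JAZ8, a jasmonate signalling repressor, rose by 3.16 ± 0.37, ACS6, an ethylene synthesis gene, by 2.56 ± 0.10 and EDS1, an immune signalling gene, by 0.68 ± 0.06. In p2k1-3, bdg-8 and the double mutant 5, 7 and 10 rose and 1, 1 and 0 fell, beside 11.9%, 18.7% and 17.1% of all genes higher and 8.53%, 17.7% and 16.5% lower. Rises with replicates 1 and 2 alone numbered 5 in Col-0 and 1, 5 and 9 in p2k1-3, bdg-8 and the double mutant. Of all genes, 8.74% rose in Col-0 in that fit, and 6.57%, 13.7% and 12.3% in the others.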

How the data were processed

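Per the submitters' processing notes, the authors used cutadapt 1.13, STAR 2.7.4a, HTSeq 0.13.5 and MultiQC 1.9; settings, strand handling and genome build are not given in the sources used here. The deposited values are raw read counts for each gene and library; 5 HTSeq summary lines (7.6 to 12.17% of each total, including ambiguous and multiply aligned reads) were left out.

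Groups followed the genotype and treatment labels. Counts were tested with edgeR 4.0.16 (R 4.3.3): TMM normalisation, its expression filter (20995 genes kept), 1 model of 8 group means and the quasi-likelihood F-test, with Benjamini-Hochberg adjustment over all genes tested and a threshold of 0.05. The 18 comparisons included differences between ATP responses. Levels (CPM) used TMM-scaled totals. The test was checked on simulated counts drawn independently for each library, so the check does not cover libraries that depend on each other. Alternatives were RLE size factors, no filter, a replicate block, fits limited to the groups compared, DESeq2 1.42.0 and leaving out each replicate number. Counts for gene lists, subgroups and members shared by all genotypes with replicates 1 and 2 alone were added after seeing the data.

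Named members were the largest called changes in set comparisons (mean log2 CPM of at least 1) and those called in opposite directions; others named beside a count were chosen after their values were seen. Members, lists and rules were chosen with earlier results of these data known. Promoters came from TAIR10.1 by locus identifier. Counting intervals cover counting error only.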

Additional observations from a re-analysis of the deposited data

Results flagged for a closer look

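The ATP responses of members differed between genotypes by the test of the difference itself (edgeR, adjusted over all genes tested), which is what marks the following values, all on the log2 scale. Between p2k1-3 and Col-0 the response differences were -4.49 for WRKY30, -2.81 for WRKY40, -2.48 for WRKY53, -2.2 for WRKY38, -1.74 for WRKY46 and -1.59 for WRKY51. Between bdg-8 and Col-0 they were -1.40 for WRKY51, 0.91 for WRKY48, 0.66 for WRKY22, 0.57 for WRKY15 and 0.50 for WRKY11. Between the double mutant and p2k1-3 they were 4.02 for WRKY30, 2.53 for WRKY53, 2.52 for WRKY40, 2.26 for WRKY46, 1.84 for WRKY70 and 1.83 for WRKY48. Not called with replicates 1 and 2 alone were WRKY38, WRKY46 and WRKY51 for p2k1-3 against Col-0. The same held for WRKY51, WRKY22 and WRKY15 for bdg-8 against Col-0.

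WRKY30 and WRKY53 moved in opposite directions with ATP in p2k1-3 and in the other 3 genotypes. The comparisons between p2k1-3 and Col-0 and between the double mutant and p2k1-3 share the p2k1-3 libraries, so their values for the same gene are not independent.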

How the results depend on the processing

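Of the 18 counts of called members, 15 stayed within 1.5 times under RLE size factors, no filter, the replicate block, limited fits and DESeq2. The others were the double mutant against bdg-8 in mock, their response difference and the mock departure from additivity. The mock comparison had 0 calls, and 1 by DESeq2 (0.667% and 1.04% of all genes). The response difference had 0, and 2 without the filter or by DESeq2 (0.638%, 0.584% and 1.07%). The departure from additivity had 5, then 8 without the filter and 9 by DESeq2 (1.98%, 1.65% and 2.41%). The cause was not tested. The labels do not say what a replicate number stands for. Same-numbered libraries of different groups had deviations correlated at -0.14 to 0.25 (median 0.03, beside -0.01 for different numbers) and 16 of 84 pairs were over 0.1, so not every pair passed the bar for a paired design, although 20 of 24 libraries correlated best with their own number, a hint from the data of something shared. The replicate block left 27 members called with ATP in Col-0, gave 15 for the p2k1-3 response difference (16 without it), and raised the p2k1-3 mock calls from 18 to 21 members and from 1111 to 1663 of all genes; it ended 0 of the 55 calls for named members.

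Leaving out 1 replicate number gave these ranges of called members. With ATP: 20 to 27 in Col-0, 17 to 27 in p2k1-3, 22 to 32 in bdg-8, 28 to 34 in the double mutant. In that order 11.9 to 21.7%, 8.96 to 22.9%, 23.1 to 34% and 20.3 to 30.1% of all genes were called. In mock: 4 to 20 for p2k1-3 and 13 to 27 for bdg-8 against Col-0. The double mutant had 0 to 2 against bdg-8 and 4 to 16 against p2k1-3, and departure from additivity had 1 to 10. In that order 0.405 to 10.2%, 15.1 to 34.7%, 0.0286 to 1.44%, 10.3 to 29.7% and 0.00952 to 2.27% of all genes were called. Under ATP, in the same order: 1 to 8, 19 to 30, 0 to 6 and 24 to 28. Of all genes, 0.881 to 6.93%, 26.8 to 45.1%, 0.362 to 8.84% and 37.3 to 49.3% were called there. Response differences: 6 to 16 for p2k1-3 and 2 to 9 for bdg-8 against Col-0. The double mutant had 0 to 4 against bdg-8 and 14 to 22 against p2k1-3, and departure from additivity had 0 to 11. Of all genes, 0.709 to 5.06%, 2.18 to 10.3%, 0.00952 to 1.97%, 6.03 to 16.8% and 0 to 2.03% were called there. Of 55 results for named members, 21 lost their call without replicate 3, 7 without replicate 1, 5 without replicate 2, 6 in fits limited to the groups compared, 1 by DESeq2 and 1 without the filter; no sign was reversed under these or the other alternatives. Members with few counts, such as WRKY30 and WRKY38 in mock, are limited by depth.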
